A study of Mus musculus with 12 samples.

Results

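The genes described here are 37 mouse genes for potassium channel subunits outside the Kv4 family, found by matching a fixed list of symbols to the Ensembl identifiers of a raw count table with 55385 genes. They were listed by channel type and not by any measured value, and form 9 families: Kv1 (Shaker) subunits, Kv beta subunits, Kv2 and Kv3 subunits, silent Kv modifiers, Kv7 subunits, ether-a-go-go channels, inward rectifiers, calcium- and sodium-activated channels, and two-pore-domain leak channels. All 37 were in the table, and 36 of them were among the 15905 genes with enough counts to be tested. The remaining one, Kcna3, which encodes Kv1.3, had 0 to 13 counts in a library.

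RNA came from hippocampus of adult mice of 4 genotypes, with 3 libraries each: WT, 5xFAD, Kcnip3 KO, and the combination of the last 2 (Kcnip3 KO-5xFAD). Kcnip3 encodes KChIP3, a calcium sensor that binds Kv4 channels and is also known as DREAM, a repressor that binds DNA. The 5xFAD line carries mutant human transgenes driven by the Thy1 promoter, so the transgenes act mainly in neurons and amyloid builds up with age. The labels give neither sex nor exact age, and they do not say that each library is a separate animal, so p-values measure the spread between these libraries. The 4 groups allow the 5xFAD effect to be read with Kcnip3 intact and on the knockout, and the knockout effect with and without 5xFAD. The interaction is the difference between these 5xFAD effects. A mean 5xFAD effect, 6 libraries against 6, and a mean Kcnip3 KO effect were also taken.

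Potassium channels let potassium leave the cell and so set the resting potential, end the action potential and limit repetitive firing. Kv1 to Kv3 channels open on depolarization, and Kv3 channels close fast enough to permit firing at high rates. Kv7 and ether-a-go-go channels open at voltages near threshold and restrain firing, BK and SK channels respond to calcium, inward rectifiers include the channels opened by G-protein-coupled receptors, and two-pore channels carry leak current. In hippocampus these families share out the control of excitability between pyramidal cells, granule cells and interneurons.

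Libraries held 7664407 to 11310714 counts. Levels are CPM, read counts relative to the library's total after TMM scaling, which allows comparison of a gene across libraries but not of genes with each other. By Thy1, whose promoter drives the transgenes, 2 libraries went against their labels: the library labelled WT 3 had 2280 CPM, against 747 and 887 in the other WT libraries, and the library labelled Kcnip3 KO-5xFAD 2 had 926 CPM, against 3380 and 2590 in the others of its group. Kcnip3 itself was at 138 to 162 CPM in the 6 libraries labelled without the knockout, at 63.4 to 84.9 CPM in 5 of the knockout libraries, and at 125 CPM in the library labelled Kcnip3 KO 3. All results carry the labels as given. The sum of 7 microglial markers, which rise around amyloid, was 503 CPM in WT 3, against 309 and 298 in the other WT libraries, and 359 CPM in Kcnip3 KO-5xFAD 2, against 896 and 714. Values without these 2 doubtful libraries are given for the members called by edgeR in 5xFAD against WT and in the mean 5xFAD effect. For the other comparisons mainly the calls without them are given. The tissue label was checked with 8 pan-neuronal genes, none of them at 0 in any library, which summed to 3800 to 4820 CPM, and with 8 dentate granule cell genes, which summed to 216 to 385 CPM.

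Per length, the channel genes spanned a wide range in the authors' deposited log2 TPM values, which exist for 36 of the 37. The median of the 36 was 4.54, against 3.81 for the 16120 genes of that table. Kcnab2, the Kv beta2 subunit that attaches to Kv1 channels, stood highest at 8.61 ± 0.22 (SD, n = 12). The inward rectifiers Kcnj4 (Kir2.3) and Kcnj9 (GIRK3) followed at 7.63 ± 0.25 and 7.31 ± 0.29 (SD, n = 12), and Kcnk1 (TWIK1) and the ether-a-go-go channel Kcnh3 at 7.06 ± 0.21 and 6.86 ± 0.19 (SD, n = 12). The interval of 1 SD around Kcnj4 met that around Kcnj9, as did those of Kcnj9, Kcnk1 and Kcnh3 in turn, so neighbours in this order did not differ beyond their spread, while Kcnab2 stood above the next by more than both SDs together. The lowest levels were those of Kcnh5 (0.04 ± 0.58), Kcnb2 (1.08 ± 0.48) and Kcnt2 (1.08 ± 0.49; SD, n = 12). The Kv beta, Kv7 and silent modifier genes all stood above the median of all genes, and each of the other 6 families had members on both sides of it.

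**Figure D1:**
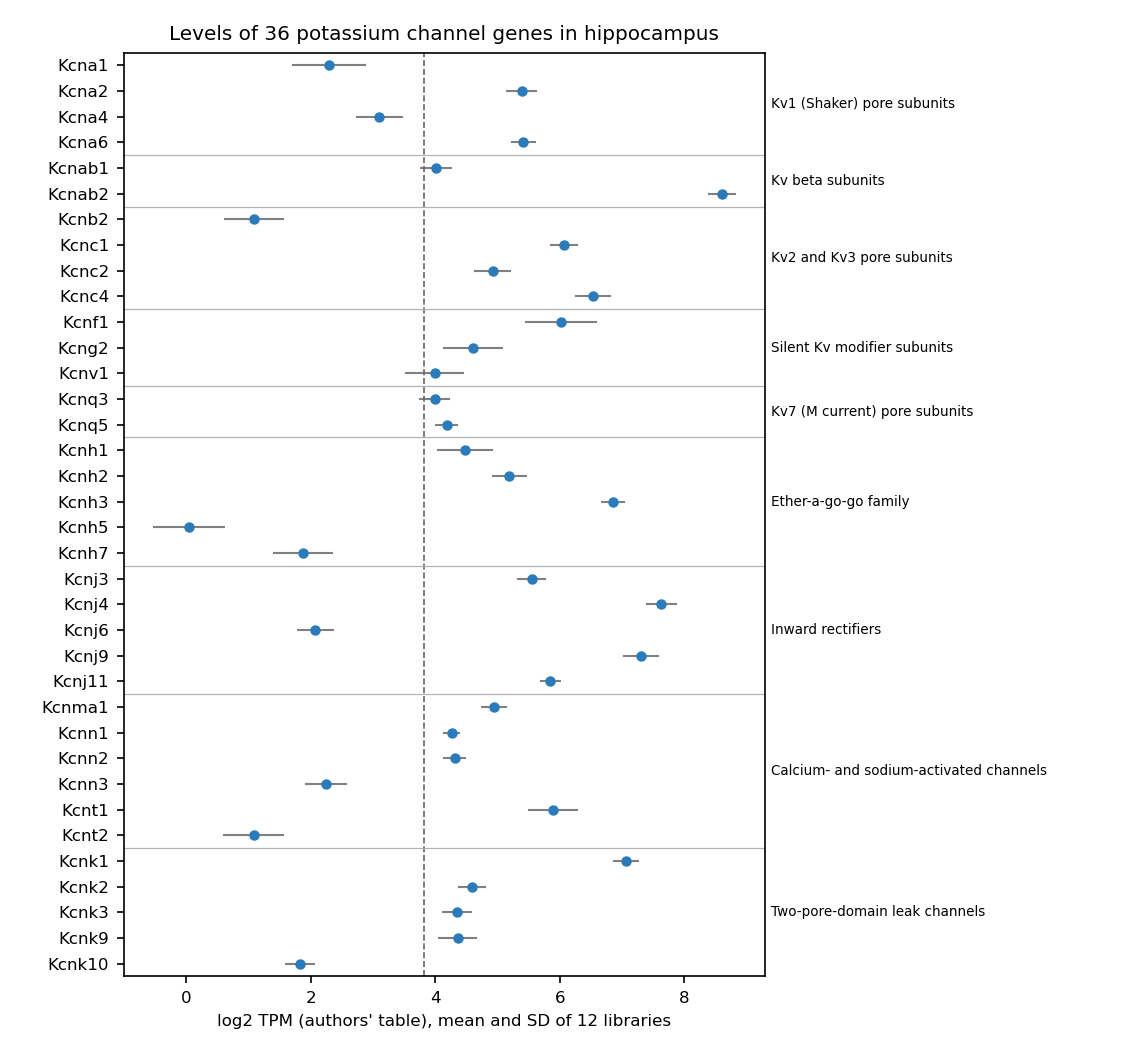
The plot of levels by family gives the authors' log2 TPM on the x axis for each of 36 channel genes (rows), as the mean (point) and SD (bar) of 12 libraries, with the median of 16120 genes as a dashed line. Kcnab2 is farthest right at 8.61 and Kcnh5 farthest left at 0.04.

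With Kcnip3 intact, most channel genes had lower means in the libraries labelled 5xFAD than in those labelled WT. Of 36 tested genes 28 had a lower mean (77.8%, against 48.3% of all genes), and the median log2 fold change was -0.25, against 0.01 over all genes. By edgeR, the main test, 3 fell after adjustment over all genes (8.33% of the 36, background 1.62%) and none rose (background 1.91%): Kcnh7, Kcnc2 and Kcnf1. At an unadjusted p under 0.05 there were 13 lower and 2 higher members, 41.7% of the 36 against 25.3% of all genes. The 3 libraries of each group did not overlap for 17 lower members (47.2%, background 13.9%) and for 1 higher member, Kcnab2 (background 13.7%). Where no other tool or setting is named, calls and p-values are those of edgeR with its filter on low counts.

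Over the 6 libraries labelled with and the 6 labelled without 5xFAD, 31 of 36 members were lower (86.1%, against 49.6% of all genes), with a median log2 fold change of -0.18 against 0 over all genes. In this mean 5xFAD effect 6 members fell by edgeR (16.7%, background 3.11%) and none rose (background 4.46%). The 6 are Kcnc2, Kcnma1, Kcnc4, Kcnk9, Kcnf1 and Kcnh7, and they come from 5 families. At an unadjusted p under 0.05 there were 17 members (47.2%, background 27.6%), 15 of them lower. All 6 libraries of one side lay below all 6 of the other for Kcnc2 and Kcnma1 (5.56%, background 1.03%).

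**Figure D2:**
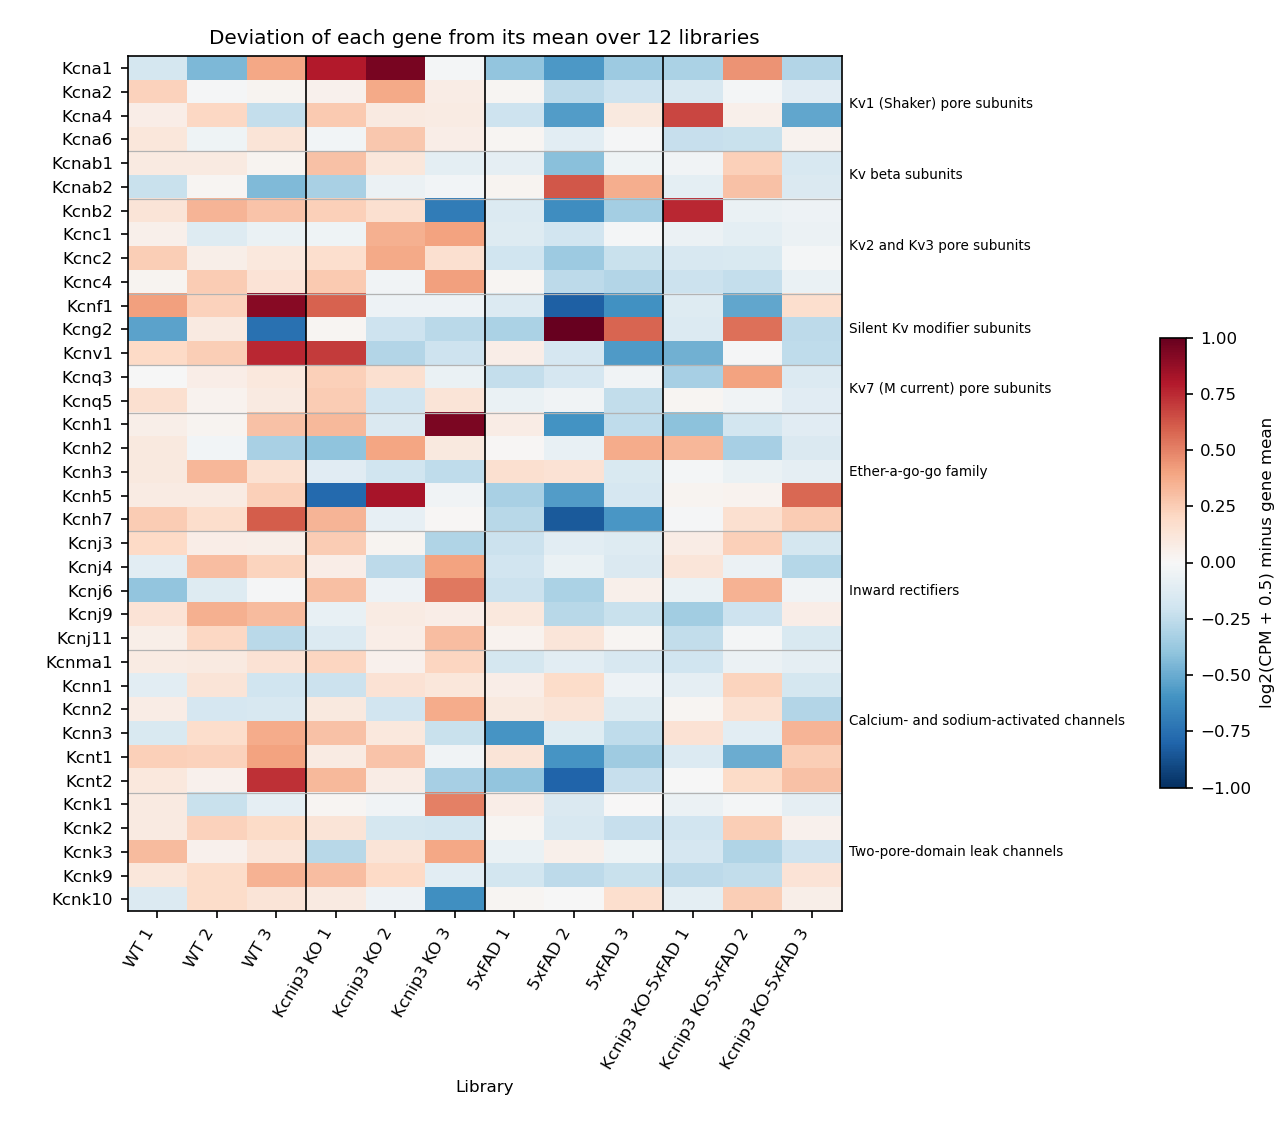
The map of deviations shows 36 channel genes (rows, by family) in 12 libraries (columns), coloured by log2(CPM + 0.5) minus the gene's mean over the libraries, with the colour limited to the range from -1 to 1. Blue is most frequent in 5xFAD 2, where 29 of 36 genes are below their mean, and in 5xFAD 3 (28), against 8 to 10 genes in the WT libraries.

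The shift was not even across libraries of a group. The members' median deviation from their own means was -0.17 and -0.15 on the log2 scale in 5xFAD 2 and 5xFAD 3, and -0.07 in 5xFAD 1. The 6 libraries labelled without 5xFAD had medians of 0.04 to 0.15. Among them the doubtful library WT 3 stood at 0.13, above WT 1 and WT 2 at 0.09 each. By this measure WT 3 went with its label and not with Thy1. Medians with both changes were -0.1, -0.02 and -0.09 in the order of the replicate numbers. The one nearest 0 belonged to the other doubtful library, Kcnip3 KO-5xFAD 2. Beside these deviations, the summed pan-neuronal markers were 4660 to 4820 CPM in WT and 4420 to 4820 in Kcnip3 KO, against 3800 to 4070 in 5xFAD and 4170 to 4320 in Kcnip3 KO-5xFAD, with no overlap between the sides. Among the 8 genes of that list 1 fell, Snap25, and the gap between the sides rests on it: without Snap25, left out after its values were seen, the sums were 3220 to 3370 and 3200 to 3380 CPM, against 2920 to 3250 and 2980 to 3260, and they overlapped. In bulk tissue fewer cells of a type and less RNA per cell cannot be told apart.

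Markers of several other cell types also differed between the libraries labelled with and without 5xFAD. All 7 microglial markers were higher in the mean effect and 6 rose, and their sum was 298 to 503 CPM in WT, 308 to 349 with the knockout alone, 853 to 1090 with 5xFAD alone and 359 to 896 with both. Of 6 astrocyte markers 5 were higher and 1 rose, Gfap. Their sums were 1140 to 1790, 1180 to 1670, 3150 to 3620 and 1450 to 3920 CPM in the same order. Most of this gap lay in Gfap, whose ranges were 375 to 896, 341 to 839, 2190 to 2720 and 551 to 2870 CPM. The remaining astrocyte markers had mean effects from -0.12 (Gja1) to 0.42 (S100b) on the log2 scale, without a call. All 7 myelin markers were higher without a call, with overlapping sums of 3480 to 5790, 4580 to 8780, 5910 to 8220 and 5540 to 7580 CPM. All 10 markers of thalamic, striatal and cortical neurons were lower and 1 fell, Rorb, with sums of 234 to 277, 225 to 291, 167 to 253 and 163 to 215 CPM. Within 5xFAD that sum was lowest in 5xFAD 2 and 5xFAD 3 (167 and 169 CPM, against 253 in 5xFAD 1), the libraries with the lowest channel values. Most of this gap lay in Lamp5, at 127, 51 and 48.3 CPM in 5xFAD 1 to 3. Of the rest, Tcf7l2, Rora, Lef1 and Rgs9 were higher in 5xFAD 3 than in 5xFAD 1, and Drd1, Drd2, Adora2a, Fezf2 and Rorb lower. The 7 choroid plexus markers had no call but differed widely within groups. Their sums were 3950, 4420 and 242 CPM in WT 1 to 3 and 7260, 345 and 10100 in 5xFAD 1 to 3. They were 4720, 3720 and 5260 CPM with the knockout alone and 543, 634 and 5320 with both. Of these markers only Cst7, a gene of microglia around plaques, was at 0 in any library, in 2 of the 12. The part of all these markers in the channel results was not tested.

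Without the 2 doubtful libraries the median log2 fold change of the members was -0.26 in 5xFAD against WT, with 28 of 36 lower, and -0.19 in the mean effect, with 32 of 36 lower. No member was then called in the first (background 0.0809% lower), and only Kcnc2 in the second (background 0.323% lower). In 5xFAD against WT the values were then -0.42 for Kcnc2 (adjusted p = 0.13), -0.82 for Kcnf1 (adjusted p = 0.136) and -0.79 for Kcnh7 (adjusted p = 0.0783). In the mean effect they were -0.27 for Kcnma1 (adjusted p = 0.0664), -0.34 for Kcnc4 (adjusted p = 0.106), -0.5 for Kcnf1 (adjusted p = 0.148), and -0.28 for Kcnk9 and -0.38 for Kcnh7 (adjusted p = 0.172 for both). All kept their direction. By DESeq2, a second count test, 9 members were called in 5xFAD against WT, 7 of them lower (background 5.48%) and 2 higher (background 4.72%), and 11 in the mean effect, 10 of them lower (background 6.17%) and 1 higher (background 6.1%). DESeq2 added Kcnj9, Kcnt1, Kcnma1 and Kcnk9 lower and Kcnab2 and Kcng2 higher in the first, and Kcnj9, Kcnt1, Kcnh1 and Kcna2 lower and Kcnab2 higher in the second.

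Among the Kv3 genes, Kcnc2 and Kcnc4 fell in the libraries labelled 5xFAD. Kcnc2 (Kv3.2; ENSMUSG00000035681, chromosome 10, 112271121 to 112467024, GRCm38) was at 78.8, 68.9 and 71.3 CPM in WT 1 to 3, 57.7, 51.3 and 56.7 with 5xFAD alone, 74.4, 86.3 and 73.9 with the knockout alone and 59.2, 59.5 and 65.4 with both, in the order of the replicate numbers. Every library labelled with 5xFAD was thus below every library without it. In the doubtful libraries WT 3 and Kcnip3 KO-5xFAD 2, Kcnc2 went with the label and not with Thy1. In the same order the group means were 73 ± 5.15, 55.2 ± 3.4, 78.2 ± 6.99 and 61.4 ± 3.53 CPM (SD, n = 3). Kcnc2 fell by 0.40 ± 0.1 (SE) on the log2 scale in 5xFAD against WT (adjusted p = 0.0431) and by 0.38 ± 0.07 in the mean effect (adjusted p = 0.00907). In Kcnip3 KO-5xFAD against Kcnip3 KO the value was -0.35 ± 0.1 (adjusted p = 0.264), and the interaction was 0.05 ± 0.14 (adjusted p = 0.956). The call in the mean effect held when any 1 library was left out (-0.4 to -0.34) and without the 2 doubtful libraries (-0.37, adjusted p = 0.0288). That in 5xFAD against WT was lost without WT 1, WT 3, 5xFAD 2 or 5xFAD 3 (-0.34, -0.42, -0.36 and -0.42, adjusted p 0.13 to 0.163) and without Kcnip3 KO-5xFAD 1 or 3, which serve only to estimate the spread (-0.4 in each, adjusted p 0.0522 and 0.0575). With length and GC offsets it was -0.24 (adjusted p = 0.19).

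Kcnc4 (Kv3.4; ENSMUSG00000027895, chromosome 3, 107438303 to 107459552, GRCm38) was at 111, 130 and 120 CPM in WT, 110, 90.9 and 88.6 with 5xFAD alone, 131, 106 and 145 with the knockout alone and 93.7, 92.1 and 104 with both. Within each Kcnip3 background the libraries did not overlap, although 5xFAD 1 was above Kcnip3 KO 2. It fell by 0.36 ± 0.09 on the log2 scale in the mean effect (adjusted p = 0.0257), with -0.32 ± 0.12 in 5xFAD against WT (adjusted p = 0.129) and -0.4 ± 0.12 on the knockout (adjusted p = 0.299). The call was lost without WT 3, Kcnip3 KO 1, Kcnip3 KO 3, 5xFAD 2, 5xFAD 3 or Kcnip3 KO-5xFAD 1 (-0.36, -0.35, -0.31, -0.35, -0.33 and -0.35, adjusted p 0.0501 to 0.0759).

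The other members of this family were tested and not called. Kcnc1 (Kv3.1) was at 171 to 202 CPM in WT and both 5xFAD groups and at 190, 250 and 258 CPM in Kcnip3 KO. Kcnb2 (Kv2.2), a low gene, was at 5.75 to 16.6 CPM. Kv3 channels are best known in fast-spiking interneurons, so the 9 interneuron markers are given beside them. Their sum was 833 to 894 CPM in WT, 698 to 886 with 5xFAD alone, 910 to 1070 with the knockout alone and 796 to 927 with both. In the mean effect 8 of the 9 were lower and 2 fell, Vip and Erbb4. Pvalb, which marks fast-spiking cells, had a log2 fold change of -0.24 in the mean effect (adjusted p = 0.27) and of 0.15 in 5xFAD against WT. The part of these markers in the Kv3 values was not tested.

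Silent modifiers do not form channels alone but join Kv2 subunits and change their gating. Kcnf1 (Kv5.1; ENSMUSG00000051726, chromosome 12, 17172100 to 17176888, GRCm38) had the largest fall of any member in 5xFAD against WT. It was at 127, 113 and 180 CPM in WT, 86.7, 54 and 62.7 with 5xFAD alone, 145, 92.2 and 92.4 with the knockout alone and 87.5, 66.5 and 108 with both. All 5xFAD libraries were below all WT libraries, while on the knockout the groups overlapped. The fall was 1.05 ± 0.25 on the log2 scale in 5xFAD against WT (adjusted p = 0.0489) and 0.69 ± 0.18 in the mean effect (adjusted p = 0.0409). On the knockout the value was -0.33 ± 0.25 (adjusted p = 0.675), and the interaction was 0.71 ± 0.36 (adjusted p = 0.853).

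The call of Kcnf1 rested on single libraries. Without WT 3, its highest library, the values were -0.82 in 5xFAD against WT (adjusted p = 0.19) and -0.58 in the mean effect (adjusted p = 0.1). In 5xFAD against WT the call was also lost without WT 1, WT 2, 5xFAD 2 or 5xFAD 3 (-1.11, -1.19, -0.92 and -1.0), and without Kcnip3 KO 2 or 3 or Kcnip3 KO-5xFAD 1 or 3, which only estimate the spread (-1.05, -1.05, -1.04 and -1.05, adjusted p 0.0541 to 0.0609). In the mean effect it was lost without WT 1, Kcnip3 KO 1, 5xFAD 2 or 3, or Kcnip3 KO-5xFAD 1 or 2 (-0.72, -0.56, -0.63, -0.67, -0.69 and -0.61). With length and GC offsets the values were -1.07 (adjusted p = 0.0727) and -0.68 ± 0.18 (adjusted p = 0.061).

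Kcng2 (Kv6.2) had higher values with 5xFAD and was called in 5xFAD against WT by DESeq2 but not by edgeR. It was at 15.2, 23.7 and 13.1 CPM in WT, 17.8, 53.2 and 33.7 with 5xFAD alone, 22.6, 19.2 and 18.4 with the knockout alone and 20.2, 32.8 and 18.5 with both. The high values were in 5xFAD 2, 5xFAD 3 and the library labelled Kcnip3 KO-5xFAD 2, and the groups overlapped. The log2 fold change in 5xFAD against WT was 1.0 ± 0.36 (edgeR adjusted p = 0.124). Fibcd1, a marker of CA1 pyramidal cells in the list of pyramidal genes, was at 327 and 243 CPM in the same 5xFAD libraries and at 91.2 to 175 CPM in the other 10. The pyramidal list summed to 532 to 720 CPM in WT and Kcnip3 KO, to 638 to 907 in 5xFAD and to 586 to 797 in Kcnip3 KO-5xFAD, with none of its 8 genes at 0, and its part in Kcng2 was not tested. Kcnv1 (Kv8.1) was at 25.7 to 38 CPM in WT and 14.9 to 23.4 CPM in 5xFAD, with a log2 fold change of -0.64 ± 0.27 (adjusted p = 0.161).

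**Figure D3:**
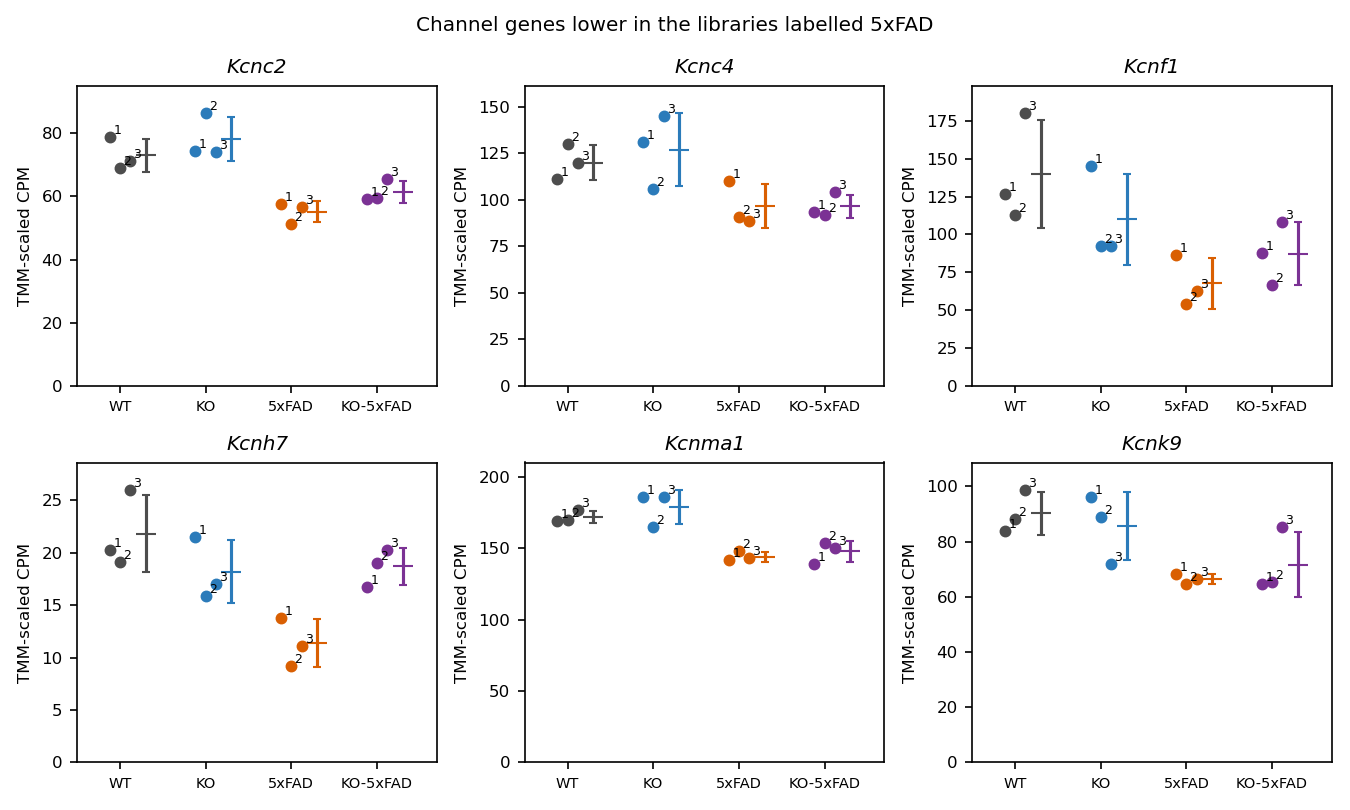
The plot of called genes gives TMM-scaled CPM (y axis, from 0) in each library (points, numbered) of the 4 groups, with the mean and SD (n = 3) beside them, for the 6 genes that fell in the mean 5xFAD effect. In the panels of Kcnc2 and Kcnma1 all 6 libraries labelled with 5xFAD lie below the other 6, and in that of Kcnh7 the 5xFAD libraries stand alone at 9.22 to 13.8 CPM.

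In the ether-a-go-go family Kcnh7 had the smallest adjusted p of any member in 5xFAD against WT. Kcnh7 (Kv11.3, of the erg group; ENSMUSG00000059742, chromosome 2, 62693414 to 63184287, GRCm38) was at 20.3, 19.1 and 26 CPM in WT, 13.8, 9.22 and 11.1 with 5xFAD alone, 21.5, 15.9 and 17 with the knockout alone and 16.7, 19 and 20.3 with both. The 5xFAD libraries were below all others, and the Kcnip3 KO-5xFAD libraries lay within the range of the 2 groups without 5xFAD. Kcnh7 fell by 0.93 ± 0.18 on the log2 scale in 5xFAD against WT (adjusted p = 0.0247) and by 0.45 ± 0.12 in the mean effect (adjusted p = 0.0419). On the knockout the 5xFAD effect was 0.04 ± 0.17 (adjusted p = 0.964). The interaction was 0.97 ± 0.25 with an unadjusted p of 0.00151, which did not pass over all genes (adjusted p = 0.853), so the 2 effects are not shown to differ.

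The call of Kcnh7 in 5xFAD against WT was lost without WT 1, WT 3, 5xFAD 2 or 5xFAD 3 (-0.98, -0.79, -0.82 and -0.92, adjusted p 0.0824 to 0.128). In the mean effect it was lost without WT 1, WT 3, Kcnip3 KO 1, Kcnip3 KO 3, 5xFAD 2 or 5xFAD 3 (-0.47, -0.38, -0.38, -0.47, -0.4 and -0.44) and without each of Kcnip3 KO-5xFAD 1 to 3 (-0.41, -0.46 and -0.48). With length and GC offsets both calls ended, at -0.5 (adjusted p = 0.0617) and -0.17 ± 0.08 (adjusted p = 0.251). Its exons share 696 bases with Gca on the opposite strand, and the strand setting of the counting is not given in the sources used here. Gca had mean levels of 6.44 CPM in WT, 3.99 with 5xFAD alone, 5.74 with the knockout alone and 5.85 with both, an order of the groups with 5xFAD lowest, as for Kcnh7. Reads of the 2 genes in that stretch cannot be told apart.

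Kcnh3 (Kv12.2) had its smallest p in the comparison of knockout with WT. It was at 221, 260 and 230 CPM in WT, 231, 229 and 186 with 5xFAD alone, 191, 180 and 173 with the knockout alone and 204, 197 and 194 with both. All Kcnip3 KO libraries were below all WT libraries, but the log2 fold change of -0.38 ± 0.1 did not pass after adjustment (unadjusted p = 0.00171, adjusted p = 0.631). It was -0.41 (adjusted p = 0.905) without the 2 doubtful libraries. Kcnh1 (Kv10.1) ranged from 32.9 to 96.7 CPM, with the highest value in Kcnip3 KO 3, Kcnh2 (Kv11.1) from 40.9 to 71.2 CPM, and Kcnh5 (Kv10.2), near the limit of detection, from 0.418 to 2.3 CPM.

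Among the calcium- and sodium-activated channels Kcnma1, the pore subunit of the BK channel, fell in the mean effect. The call did not hold with a correction for transcript length and GC content together. Kcnma1 (ENSMUSG00000063142, chromosome 14, 23289431 to 24014491, GRCm38) was at 169, 170 and 177 CPM in WT, 142, 148 and 143 with 5xFAD alone, 186, 165 and 186 with the knockout alone and 139, 154 and 150 with both. The highest library labelled with 5xFAD, at 154 CPM, was below the lowest without, at 165 CPM. As for Kcnc2, the 2 doubtful libraries went with their labels and not with Thy1. The mean effect was a fall of 0.26 ± 0.06 on the log2 scale (adjusted p = 0.0186), with -0.25 ± 0.08 in 5xFAD against WT (adjusted p = 0.0879) and -0.28 ± 0.08 on the knockout (adjusted p = 0.286). The call was lost without WT 3, Kcnip3 KO 1, 5xFAD 3 or Kcnip3 KO-5xFAD 1 (-0.25, -0.25, -0.26 and -0.24, adjusted p 0.0535 to 0.0633). With offsets for transcript length and GC content the mean effect was -0.06 ± 0.07 and the call ended (adjusted p = 0.627). Its exons share 1016 bases with 4930519K11Rik on the opposite strand, which was at 0.634 to 2.42 CPM.

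Kcnt2 (Slick, a sodium-activated channel) was low throughout, at 4.68, 4.47 and 7.52 CPM in WT, 3.18, 2.27 and 3.62 with 5xFAD alone, 5.54, 4.59 and 3.34 with the knockout alone and 4.32, 5 and 5.4 with both. The 5xFAD libraries were below those of WT and of Kcnip3 KO-5xFAD without overlap, while 5xFAD 3 lay above Kcnip3 KO 3. The log2 fold change in 5xFAD against WT was -0.86 ± 0.28 (adjusted p = 0.0835). Its relative Kcnt1 (Slack) ranged from 204 to 229 CPM in WT, against 190, 116 and 136 CPM with 5xFAD alone. The SK channel genes Kcnn1 and Kcnn2 had log2 fold changes of 0.12 and 0.11 in 5xFAD against WT and ranged from 23 to 31.3 and from 37 to 58.8 CPM. Kcnn3 ranged from 9.78 to 19.5 CPM.

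Of the two-pore-domain channels, which carry leak current, Kcnk9 (TASK3; ENSMUSG00000036760, chromosome 15, 72501089 to 72546340, GRCm38) fell in the mean effect. It was at 83.8, 88.2 and 98.8 CPM in WT, 68.3, 64.5 and 66.5 with 5xFAD alone, 96, 88.9 and 71.9 with the knockout alone and 64.5, 65.3 and 85.3 with both. The 5xFAD libraries were below all of WT and Kcnip3 KO, and Kcnip3 KO-5xFAD 3 lay among the libraries without 5xFAD. The mean effect was a fall of 0.35 ± 0.09 on the log2 scale (adjusted p = 0.0339), with -0.44 ± 0.13 in 5xFAD against WT (adjusted p = 0.0654). The call was lost without WT 1, WT 3, Kcnip3 KO 1, Kcnip3 KO 2, 5xFAD 2 or 3, or Kcnip3 KO-5xFAD 1 or 2 (-0.38, -0.31, -0.3, -0.34, -0.35, -0.35, -0.31 and -0.32, adjusted p 0.0515 to 0.0933), and with length and GC offsets (-0.17 ± 0.07, adjusted p = 0.183).

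Kcnk2 (TREK1), a channel opened by stretch and lipids, was at 38.8, 42.9 and 41.7 CPM in WT, 37, 32.6 and 31.1 with 5xFAD alone, 40, 32.3 and 32.1 with the knockout alone and 31.9, 43.4 and 37.7 with both. The WT libraries were above those of 5xFAD without overlap, at a log2 fold change of -0.29 ± 0.13 (adjusted p = 0.174). Its exons share 604 bases with A430027H14Rik on the opposite strand. Kcnk1 (TWIK1) ranged from 78.3 to 130 CPM, Kcnk3 (TASK1) from 20 to 32.5 and Kcnk10 (TREK2) from 5.98 to 11.2, and none of these was called.

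Kv1 subunits, which sit in axons and set the threshold for firing, had no call by edgeR, while DESeq2 called Kcna2 lower in the mean effect. Kcna1 (Kv1.1) was at 6.17, 5 and 9.3 CPM in WT, 5.21, 4.54 and 5.34 with 5xFAD alone, 12.5, 14 and 6.9 with the knockout alone and 5.54, 9.78 and 5.65 with both. Its highest libraries were Kcnip3 KO 1 and 2, and the groups overlapped. Kcnip3 KO overlapped WT only through Kcnip3 KO 3, the library with Kcnip3 at 125 CPM. The log2 fold change was 0.71 ± 0.3 in Kcnip3 KO against WT (adjusted p = 0.999) and -0.55 ± 0.22 in the mean 5xFAD effect (adjusted p = 0.12). Kcna2 (Kv1.2) was at 180, 152 and 156 CPM in WT, 156, 128 and 133 with 5xFAD alone, 158, 199 and 161 with the knockout alone and 137, 151 and 141 with both, with a mean effect of -0.25 ± 0.08 (adjusted p = 0.0679). Its libraries overlapped at 152 to 156 CPM. Kcna4 (Kv1.4) ranged from 8.37 to 20.3 CPM and Kcna6 (Kv1.6) from 66 to 93.6 CPM. Kcna6 shares 2355 exon bases with Gm26673 on the opposite strand.

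The Kv beta genes encode cytoplasmic partners of Kv1 channels. Neither was called by edgeR, while DESeq2 called Kcnab2 higher in 5xFAD against WT and in the mean effect. Kcnab2 was at 719, 851 and 616 CPM in WT, 857, 1290 and 1080 with 5xFAD alone, 669, 805 and 824 with the knockout alone and 783, 1030 and 761 with both. It was the only member whose 5xFAD libraries were all above those of WT, with 5xFAD 1 close to WT 2. The log2 fold change was 0.56 ± 0.17 in 5xFAD against WT (adjusted p = 0.0686) and 0.36 ± 0.12 in the mean effect (adjusted p = 0.0721). Kcnab1 was at 58.9, 58.8 and 56.4 CPM in WT, 52.1, 41.4 and 53.6 with 5xFAD alone, 67.9, 59.8 and 51.6 with the knockout alone and 54, 65.5 and 49.4 with both. It was lower in every 5xFAD library than in WT, at -0.24 ± 0.13 (adjusted p = 0.274).

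Kv7 subunits carry the M current, which muscarinic receptors suppress. Kcnq3 (Kv7.3) was at 71.2, 74.9 and 77.2 CPM in WT, 60.7, 63.5 and 69.6 with 5xFAD alone, 84.5, 80.1 and 68.5 with the knockout alone and 56.8, 94.8 and 65.1 with both. Kcnq5 (Kv7.5) was at 47.9, 43.7 and 45.4 CPM in WT, 40.9, 41.7 and 36 with 5xFAD alone, 50.9, 37.4 and 46.8 with the knockout alone and 43.2, 41.7 and 39.4 with both. Both were lower in every 5xFAD library than in every WT library, but at -0.2 ± 0.15 and -0.21 ± 0.12 neither passed the test (adjusted p = 0.423 and 0.272).

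Among the inward rectifiers, Kcnj9 (GIRK3) was not called by edgeR but was called lower by DESeq2 in 5xFAD against WT and in the mean effect, and by edgeR with length and GC offsets in the mean effect (-0.33, adjusted p = 0.047). It was at 229, 267 and 261 CPM in WT, 225, 172 and 179 with 5xFAD alone, 198, 222 and 219 with the knockout alone and 164, 181 and 219 with both. All WT libraries were above all other libraries. The log2 fold change was -0.39 ± 0.12 in 5xFAD against WT (adjusted p = 0.0798) and -0.24 ± 0.12 in Kcnip3 KO against WT (adjusted p = 0.999). Kcnj6 (GIRK2), which pairs with GIRK1 in neurons, was at 7.23, 8.83 and 9.61 CPM in WT, 8.26, 7.66 and 10 with 5xFAD alone, 12, 9.3 and 14.2 with the knockout alone and 9.2, 12.4 and 9.45 with both. Its log2 fold change was 0.47 ± 0.2 in Kcnip3 KO against WT (adjusted p = 0.999), with overlapping libraries. Kcnj3 (GIRK1) ranged from 60.9 to 89.5 CPM, Kcnj4 (Kir2.3) from 107 to 173 and Kcnj11 (Kir6.2) from 53.9 to 80.7.

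The median length of the called channel genes was above that of the members. The values of several of them moved with a correction for length and GC content together. The longest GENCODE transcript had a median of 8570 bases and 46.8% GC among the 6 genes called in the mean effect, 4589 bases and 50.6% among the 36 members, and 3273 bases and 49.9% among all tested genes. Not all of the 6 were long: Kcnc4, Kcnf1 and Kcnc2 had 3667, 4789 and 5046 bases. Kcnma1, Kcnk9 and Kcnh7 had 12094, 12300 and 13321 bases. With offsets that remove each library's smooth trend on transcript length and GC content, the median log2 fold change of the members was -0.08 in the mean effect, with 27 of 36 lower, and -0.15 in 5xFAD against WT, with 26 of 36 lower. Then no member was called in 5xFAD against WT (background 0.195% lower). In the mean effect 3 were called, all lower (background 1.39% lower): Kcnc4 (-0.41 ± 0.09, adjusted p = 0.0281), Kcnc2 (-0.26 ± 0.06, adjusted p = 0.0397) and Kcnj9 (-0.33 ± 0.09, adjusted p = 0.047). The calls of Kcnma1, Kcnh7, Kcnk9 and Kcnf1 ended, at the values given with each gene. Length and GC content were corrected together, so their parts cannot be told apart. What these trends reflect was not tested.

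**Figure D4:**
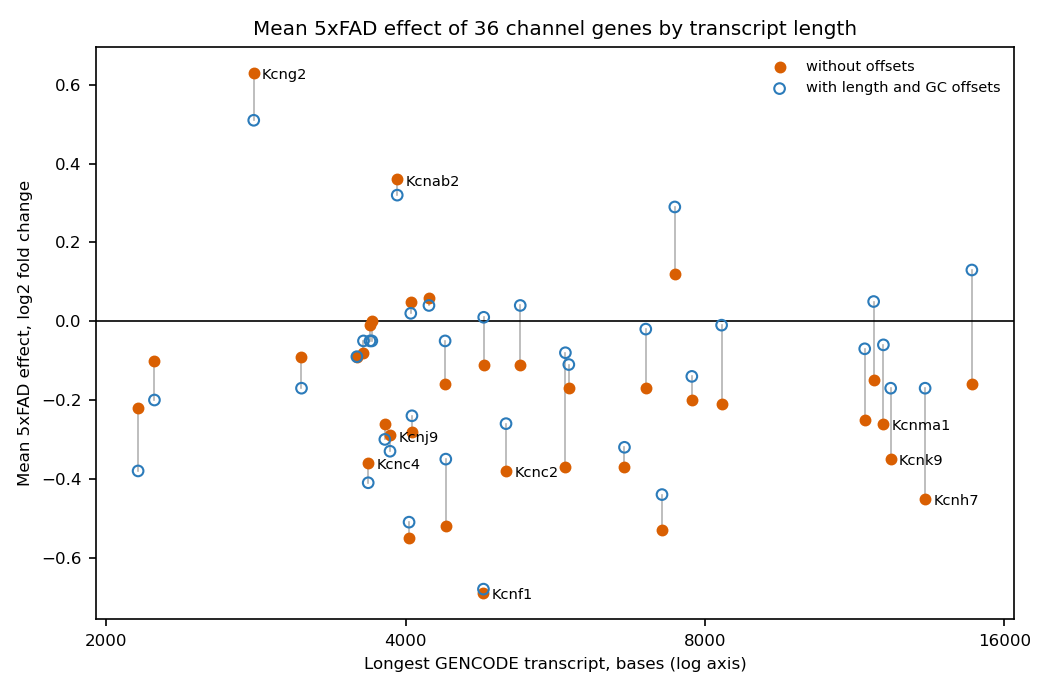
The plot of the mean 5xFAD effect by length gives the length of the longest GENCODE transcript in bases (x, log axis) and the log2 fold change (y) of 36 channel genes, without (filled) and with (open) length and GC offsets, joined by lines. Kcnma1, at 12094 bases, moves from -0.26 to -0.06 and Kcnh7, at 13321 bases, from -0.45 to -0.17, while Kcnf1, at 4789 bases, stays near -0.69.

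On the knockout background, too, most channel genes had lower means with 5xFAD, without calls. In Kcnip3 KO-5xFAD against Kcnip3 KO 24 of 36 members were lower, with a median log2 fold change of -0.15 against 0 over all genes. By edgeR no member was called (background 0%), nor by DESeq2 (background 0.812%). Without the 2 doubtful libraries no member was called by edgeR either, while 1.29% of all genes were then called higher and 0.00622% lower. At an unadjusted p under 0.05 there were 9 members, all lower (25%, background 10.4%): Kcnc2, Kcnma1, Kcnc4, Kcnc1, Kcnh1, Kcna2, Kcna6, Kcna1 and Kcnk3. This comparison and 5xFAD against WT share no library. Members lower in both made up 18 of 36 (50%), against 33.3% of all genes, and members higher in both, Kcnab2 and Kcng2, 5.56%, against 34.8%. Members that went opposite ways made up 16 of 36 (44.4%), against 31.9% of all genes. Since 77.8% and 66.7% of the members were lower in the 2 comparisons taken singly, the share lower in both does not show that the same members were lower in each.

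**Figure D5:**
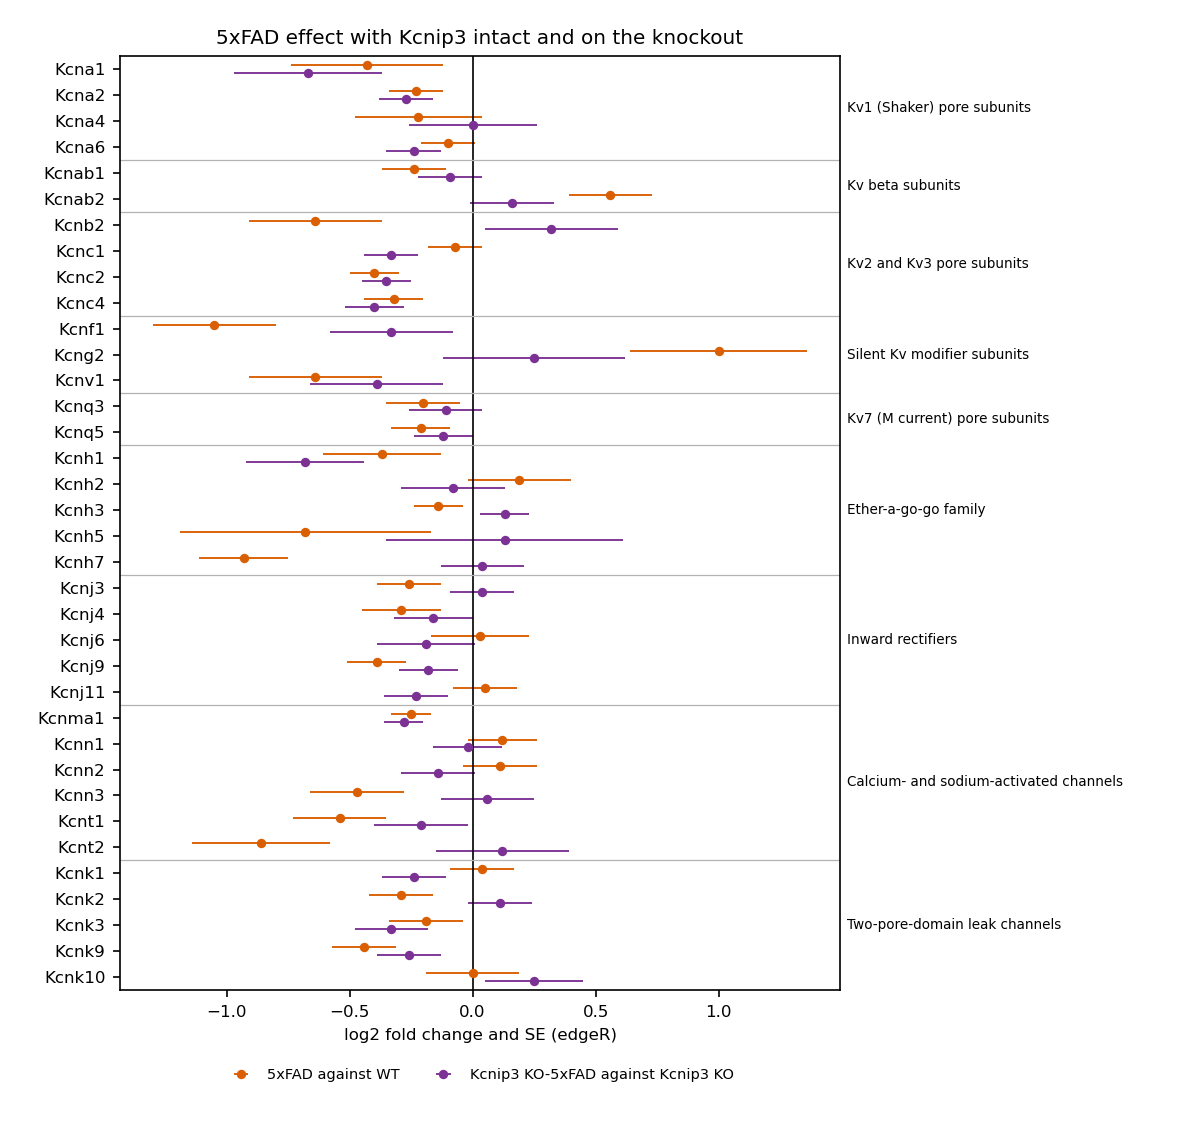
The plot of both 5xFAD effects gives the log2 fold change and its SE (x axis) of 36 channel genes (rows, by family) in 5xFAD against WT (orange) and in Kcnip3 KO-5xFAD against Kcnip3 KO (purple). Kcnc2 is left of 0 in both (-0.4 and -0.35), Kcnh7 only in the first (-0.93 and 0.04), and Kcng2 is farthest right in the first (1.0).

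No channel gene passed the test for loss of Kcnip3 alone. In Kcnip3 KO against WT 19 members were higher and 17 lower, with a median of 0.04, and none was called by edgeR (background 0.0503%) or DESeq2 (background 0.14%). This comparison includes Kcnip3 KO 3, whose Kcnip3 was at 125 CPM. Without that library edgeR called no member either (background 0.0247% higher, 0.037% lower). The members with small p, with all libraries kept, were these. At an unadjusted p under 0.05 there were 4 (11.1%, background 4.51%): Kcnh3 lower, and Kcnc1 (0.3 ± 0.11), Kcna1 and Kcnj6 higher. The mean Kcnip3 KO effect, 6 libraries against 6, had no call either (background 0.088%, by DESeq2 0.134%). The same 4 genes had an unadjusted p under 0.05 there (background 8.47%), at -0.25 ± 0.07 for Kcnh3, 0.59 ± 0.22 for Kcna1, 0.36 ± 0.14 for Kcnj6 and 0.17 ± 0.08 for Kcnc1. Adjusted p was at least 0.521.

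In the presence of 5xFAD, 24 of 36 members were higher without Kcnip3, at a median of 0.06. No member was called in Kcnip3 KO-5xFAD against 5xFAD by edgeR (background 0.0692%) or DESeq2 (background 0.149%). At an unadjusted p under 0.05 there were 4, all higher (11.1%, background 10.4%), a share near the background: Kcnh7 (0.71 ± 0.18, adjusted p = 0.411), Kcnt2 (0.68 ± 0.28), Kcnn3 (0.46 ± 0.19) and Kcnb2 (0.65 ± 0.28; adjusted p = 0.453 for these 3). All 4 were lower in 5xFAD against WT, at -0.93, -0.86, -0.47 and -0.64, a comparison that uses the same 5xFAD libraries. The interaction called no member by edgeR (background 0%) or DESeq2 (background 0.00944%). Without the 2 doubtful libraries edgeR called no member in Kcnip3 KO-5xFAD against 5xFAD (background 0.0311% higher, 0.00622% lower). Nor did it call any in the interaction (background 0.00622% higher, 0% lower). In the interaction with all libraries, the members with small p were as follows. At an unadjusted p under 0.05 there were 4 (11.1%, background 5.26%), all positive: Kcnh7, Kcnt2 (0.98 ± 0.39), Kcnb2 (0.96 ± 0.38) and Kcnk2 (0.41 ± 0.18), each with an adjusted p of 0.853.

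A list of 54 further potassium channel and subunit genes, of which 35 were tested, was set beside the members. In the mean 5xFAD effect 26 of the 35 were lower (74.3%), with a median of -0.11, against 49.6% and 0 over all genes, and 2 fell (5.71%, against 3.11% of all genes). One is Kcnj12, the inward rectifier Kir2.2, which fell by 0.59 ± 0.14 on the log2 scale (adjusted p = 0.0229). In 5xFAD against WT 21 of the 35 were lower (60%, against 48.3% of all genes), with a median of -0.13, and none passed, with Kcnj12 at -0.7 ± 0.2 (adjusted p = 0.0611) and Kcnj16 at -0.5 ± 0.16 (adjusted p = 0.0794). On the knockout 22 of 35 were lower, with a median of -0.1, and the smallest p belonged to Kcnk4 (TRAAK, -0.56 ± 0.16, adjusted p = 0.264). By edgeR no member of either list rose in these comparisons, while DESeq2 called Kcnab2 and Kcng2 higher as given above. DESeq2 calls were not taken for the 35. The call of Kcnj12 was not recomputed under the alternatives.

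For loss of Kcnip3 none of the 35 was called. Kcns1 (Kv9.1) was at -0.52 ± 0.16 (adjusted p = 0.971) in Kcnip3 KO against WT. With 5xFAD present, Kcnk4 was at -0.67 ± 0.16 (adjusted p = 0.29) and Kcne4, a small accessory subunit, at 1.43 ± 0.49 (adjusted p = 0.433). In the interaction Kcnk4 was at -0.61 ± 0.22 (adjusted p = 0.853), and in the mean knockout effect Kcns1 was at -0.45 ± 0.12 (adjusted p = 0.514) and Kcnk4 at -0.37 ± 0.11 (adjusted p = 0.529).

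Promoters were read because the protein lost in the knockout binds the downstream regulatory element, whose core is GTCA. RefSeq windows (GRCm38.p6, 250 bases before to 50 after a start) existed for 26 of the 37 members. Shown are those of Kcnf1 and Kcnh7, the members called in both 5xFAD comparisons whose window ends within a GENCODE transcript, and of Kcnma1, which lacks the core. Capitals mark GTCA or its reverse complement TGAC, and each sequence runs 5′ to 3′ on the gene's own strand, the minus strand in all 3 cases, at chr12:17176839-17177138, chr2:63184238-63184537 and chr14:24004156-24004455.
Kcnf1: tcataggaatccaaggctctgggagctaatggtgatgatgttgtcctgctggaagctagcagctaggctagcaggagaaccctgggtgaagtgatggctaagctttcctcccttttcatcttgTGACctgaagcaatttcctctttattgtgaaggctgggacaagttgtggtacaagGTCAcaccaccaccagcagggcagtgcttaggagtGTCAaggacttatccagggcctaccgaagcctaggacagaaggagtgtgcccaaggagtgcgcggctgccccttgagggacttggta
Kcnh7: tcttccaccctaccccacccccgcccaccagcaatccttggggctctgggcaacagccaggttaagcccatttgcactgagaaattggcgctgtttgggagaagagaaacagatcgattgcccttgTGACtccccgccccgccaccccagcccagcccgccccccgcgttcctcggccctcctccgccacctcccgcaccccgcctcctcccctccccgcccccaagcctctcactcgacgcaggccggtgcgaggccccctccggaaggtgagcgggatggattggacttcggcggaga
Kcnma1: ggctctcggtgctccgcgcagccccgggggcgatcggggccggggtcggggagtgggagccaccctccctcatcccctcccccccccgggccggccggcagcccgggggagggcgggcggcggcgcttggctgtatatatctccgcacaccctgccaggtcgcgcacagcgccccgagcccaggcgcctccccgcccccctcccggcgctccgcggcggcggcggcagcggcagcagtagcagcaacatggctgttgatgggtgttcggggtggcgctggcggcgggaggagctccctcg

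The core occurred 3 times in the window of Kcnf1, once in that of Kcnh7 and not in that of Kcnma1. Searched on both strands, GTCA was in 24 of 26 member windows (92.3%) and in 85.2% of all 32851 windows, so a match is common. The mean number of matches per window was lower in the members, at 1.77 against 2.09 in all windows. Of the 5 called members with a window 4 held GTCA. Of the 26 member windows 9 held the cyclic AMP response half-site TGACG (34.6%, against 20.8% of all windows), each match of which contains a TGAC. The GC box GGGCGG was in 15 of 26 (57.7%, against 35.7%). A match is a run of letters and not a bound site. Bases more than 50 after a start were not searched.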

How the data were processed

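Tools listed by the submitters' processing notes are edgeR 3.38.4, R 4.2.1, featureCounts, HISAT2 2.1.0 and FastQC 0.11.9, with mm10 as the build; the annotation release and strand setting are not given in these sources. The authors deposited raw counts per gene for 12 libraries and a log2 TPM table, which served for levels only and whose offset and gene lengths are likewise not given. Libraries were made from mRNA, per the labels' protocols.

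Counts were tested with edgeR 4.0.16 (R 4.3.3): filterByExpr by genotype, TMM, robust quasi-likelihood fit of all 12 libraries, Benjamini-Hochberg adjustment over 15905 genes, and a threshold of 0.05. The common biological coefficient of variation was 0.144. Of the identifiers 55144 matched GENCODE M21 symbols. The fit was tested on simulated data. Library totals were 7664407 to 11310714, and a count of 3 corresponds to 0.272 to 0.425 CPM. No 2 libraries of a group agreed within sampling noise. The alternatives were DESeq2 (1.42.0) and its size factors, no filter, the replicate number as a block, length and GC offsets, and leaving out libraries.

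The members and lists were chosen with earlier results of these data known. Values in every library are given for members called in any comparison and for the 2 members of each family with the smallest unadjusted p among the 5 comparisons other than the mean effects; of the other channel genes at most 4 called ones per comparison, or 2 where none is called. Some of these other genes are not reported here.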

Additional observations from a re-analysis of the deposited data

How the results depend on the processing

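The counts of called channel genes depended on the processing in the 5xFAD comparisons. In 5xFAD against WT the 3 calls became 9 with no filter, 9 with DESeq2, 0 with length and GC offsets, 1 with the replicate block and these offsets together, and 0 with WT 3 and Kcnip3 KO-5xFAD 2 both left out. In the mean 5xFAD effect the 6 calls became 14, 11, 3, 3 and 1 in the same order. Leaving out 1 library at a time gave 0 to 8 calls in 5xFAD against WT, with 0 without WT 1, WT 3, 5xFAD 2 or 5xFAD 3, 1 without Kcnip3 KO-5xFAD 1 or 3, and 8 without 5xFAD 1. In the mean effect it gave 1 to 12, with 1 without WT 3, Kcnip3 KO 1, 5xFAD 3 or Kcnip3 KO-5xFAD 1, 2 without 5xFAD 2, 3 without WT 1 or Kcnip3 KO-5xFAD 2, and 12 without 5xFAD 1. The share of all genes called moved too: in 5xFAD against WT 5.8% were higher and 7.27% lower without 5xFAD 1 and 0.00617% higher and 0% lower without 5xFAD 2, and in the mean effect 8.02% and 8.43% without 5xFAD 1 and 1.96% and 0.507% without 5xFAD 3. With no filter 3.57% were higher and 3.13% lower in the first and 4.14% and 3.63% in the second. With the replicate block and the offsets together 0.629% were higher and 0.377% lower in the first and 3.31% and 1.58% in the second. With no filter, which tests 31787 genes, the interaction had 2 calls (Kcnf1 and Kcnh7), Kcnip3 KO-5xFAD against 5xFAD 2 (Kcng2 and Kcnh7) and Kcnip3 KO-5xFAD against Kcnip3 KO 2 (Kcnc4 and Kcnh1), against 0 in each. Of all genes 0.453% were then higher and 0.403% lower in the interaction. The shares were 0.629% and 0.475% in Kcnip3 KO-5xFAD against 5xFAD. They were 1.32% and 0.95% in Kcnip3 KO-5xFAD against Kcnip3 KO. The cause of these changes was not tested. Kcnip3 KO against WT and the mean Kcnip3 KO effect had 0 calls under all 19 alternatives. None of the called values of single genes changed sign under any of the 19, and Kcnc2 in the mean effect passed in 18 of them (-0.26, adjusted p = 0.0507, with the replicate block and the offsets together).

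Replicate numbers did not pair the libraries: correlations of same-numbered libraries were -0.32 to 0.25, with 6 of 18 over 0.1, and 3 of 12 libraries correlated best with their own number. The replicate block gave 4 calls in 5xFAD against WT, 3 lower and 1 higher (3.78% and 3.97% of all genes), and 8 in the mean effect, 7 lower and 1 higher (4.81% and 6.48% of all genes). The higher one was Kcnab2 in both. At these depths, members under about 10 CPM rest on few counts: Kcnh5 had at least 4 and Kcnt2 at least 16 in a library.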
